A study of Mus musculus with 9 samples.

Results

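Activated mouse T cells in which CD69 was engaged with antibodies were compared with activated cells that lack the Cd69 gene, so that the contrast sets CD69 engagement against the deletion of its gene, as the labels give it. The comparison covers 3 CD69-activated and 3 CD69-/- arrays and every probe set with exactly 1 gene symbol, which is 21789 of the 35556 probe sets on the array. These probe sets stand for 19938 genes, each described below by its brightest probe set. CD69 is a C-type lectin-like membrane receptor that lymphocytes display soon after stimulation. It binds the sphingosine 1-phosphate receptor S1P1 on the same cell and pulls it inwards, which holds newly activated lymphocytes inside lymphoid tissue. Activated CD4 T cells divide, grow and begin to make the cytokines of a helper lineage, such as interferon gamma in Th1 cells.

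All cells came from the spleen of C57BL/6J mice, were enriched for CD4 T cells, and were held for 72 h with beads coated with anti-CD3 and anti-CD28 at 10 cells per bead. The beads stand in for antigen and costimulation, and both groups received them. The CD69-activated group is wild type; it received an anti-CD69 antibody at 24 h and a secondary antibody that cross-links the first at 48 h, each diluted 1 in 200. The CD69-/- group carries the deletion and received neither antibody. Another group of 3 arrays, wild-type cells with beads and no CD69 antibody, is outside the contrast and enters the fit only through the estimate of spread. No culture with an isotype control or with the secondary antibody alone is described, so CD69 engagement and other effects of the antibodies cannot be told apart. Genotype and antibodies differ together between the 2 groups compared, so this contrast does not separate them. The samples are named biological replicates, but whether each came from its own mouse is not said, so the p-values speak only of the spread among these arrays, which may be technical.

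The arrays of the 2 groups also differed in sex-linked transcripts. Xist, the RNA that silences an X chromosome in female cells, had log2 levels of 12.94, 13.01 and 12.89 on the CD69-activated arrays and 5.77, 6.02 and 6.26 on the CD69-/- arrays. Eif2s3y, Uty and Kdm5d, carried by the Y chromosome, went the other way, with differences of -5.43, -4.50 and -3.60 (CD69-activated minus CD69-/-, log2). The untreated wild-type arrays had the female pattern too, with means of 12.59 for Xist and 4.33 for Eif2s3y. Each of the other differences below is therefore also a difference between arrays with a female and arrays with a male pattern. Within this contrast sex, genotype and antibody cannot be told apart. Of 739 X-linked genes 37.2% were called, against 42.7% of 19190 genes on neither sex chromosome. Levels are log2 values after RMA, a method that corrects background, equalises arrays and summarises probes. Array medians were 7.52 to 7.56 in the CD69-activated group and 7.40 to 7.43 in the CD69-/- group. With 3 arrays a group, their number limits the precision.

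Similar numbers of genes were higher and lower in CD69-activated cells, with slightly more higher, but the larger changes were mostly falls. Of 21789 probe sets 9273 (42.6%) passed an adjusted p under 0.05, 4692 (21.5%) higher and 4581 (21.0%) lower in CD69-activated cells. By gene, 4297 of 19938 (21.6%) were called higher and 4184 (21.0%) lower, with a median difference of 0.04 over all genes. At 1.5-fold or more, 801 genes (4.02%) were called: 275 (1.38%) were higher and 526 (2.64%) lower, and at 2-fold or more 62 (0.311%) were higher and 109 (0.547%) lower. The values of the groups did not overlap for 5450 genes (27.3%) that were higher and for 4818 (24.2%) that were lower. The falls lay mainly among bright genes, while the rises were spread over all levels: among the dimmest 25% of genes 17.15% were called higher and 1.16% lower, among the next 25% the shares were 29.72% and 6.82%, and among the brightest 25% they were 20.14% and 41.04%. Over all probe sets the SD of values was 2.25, 2.26 and 2.27 on the CD69-activated arrays and 2.31, 2.31 and 2.31 on the CD69-/- arrays. The part of this narrower range in the differences by level was not tested. Centring each array on its own median shifted every difference by -0.13, and the probe sets called then numbered 1523 higher and 8846 lower. In the plot of difference against level, falling cytokine and granzyme genes stand out below the rest. Their mean levels over 9 arrays were 8.07 for Il2, 8.60 for Il21, 9.40 for Gzma, 10.81 for Gzmb and 10.96 for Ifng.

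**Figure D1:**
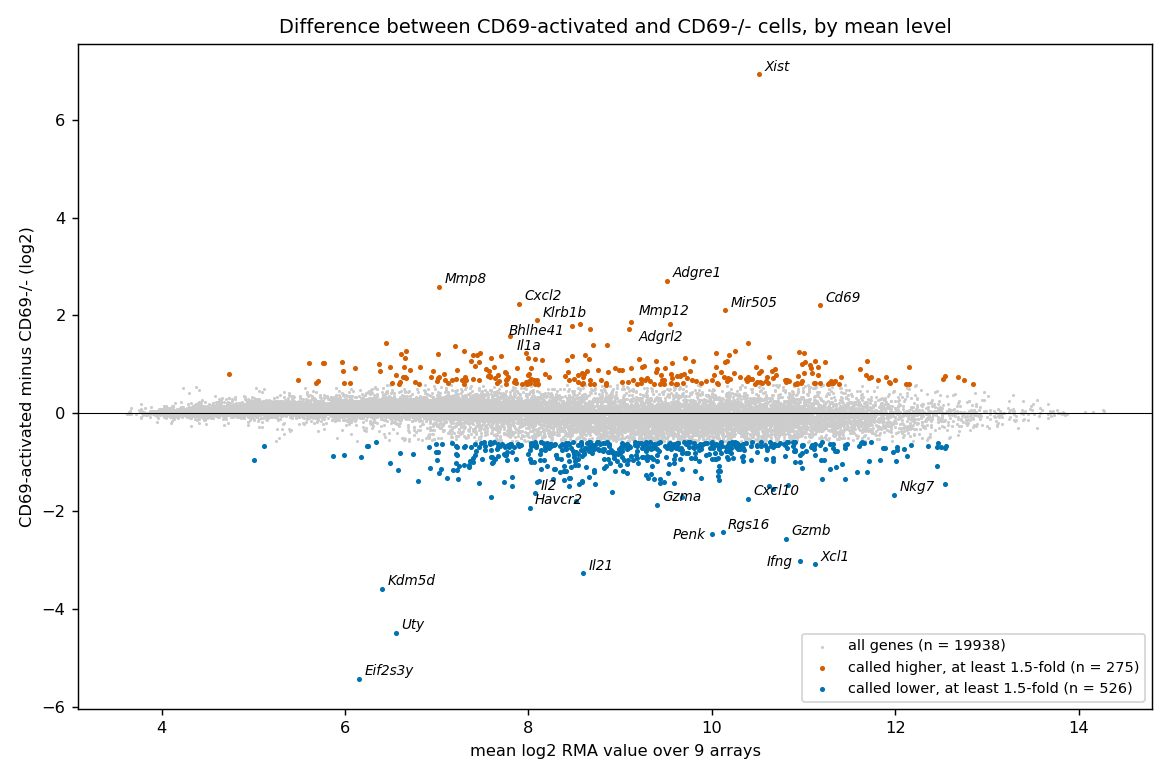
Each point is 1 of 19938 genes; the horizontal axis is the mean log2 RMA value over 9 arrays and the vertical axis the CD69-activated minus CD69-/- difference in log2. Orange and blue points are the 275 and 526 called genes that differ by at least 1.5-fold, and Il21, Xcl1, Ifng and Gzmb are the lowest points outside the Y-linked genes.

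Cd69 itself separated the groups. Its log2 level was 11.80, 11.84 and 11.74 on the CD69-activated arrays and 9.65, 9.49 and 9.63 on the CD69-/- arrays. The groups did not overlap, and the mean was 4.61-fold higher in CD69-activated cells (log2 difference 2.20, SE 0.079, adjusted p = 1.73e-08). The CD69-/- level was still higher than the array medians; the labels do not place this probe set inside or outside the deletion, so it is no full check of the knockout. Cd69 lies in the natural killer gene complex on chromosome 6, among genes for related lectin-like receptors. By RefSeq gene order, 5 of the 25 measured genes on one side of Cd69 were higher and 4 lower (36.0% called), and on the other side 6 were higher and 9 lower (60.0% called), against 41.4% called on all of chromosome 6.

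Genes near Cd69 moved both ways, and the largest rises were those of Klrb1b, Clec2i and Klrb1f. Klrb1b, which encodes an NKR-P1 receptor of natural killer cells, lies 7 measured genes from Cd69 and had levels of 8.82, 8.58 and 8.58 in CD69-activated cells and 6.71, 6.76 and 6.82 in CD69-/- cells. Clec2i, which encodes a lectin-like ligand of the NKR-P1 family, lies 6 genes away and differed by 1.25 (adjusted p = 3.14e-09), and Klrb1f, 4 genes away, by 0.84. The measured genes next to Cd69 on either side, Clec2d and Clec2m, differed by -0.03 and 0.13 and were not called (adjusted p = 0.744 and 0.0673). Clec1b and Clec9a, 4 and 5 genes away on the side of Clec2m, rose by 0.18 and 0.20. In untreated wild-type cells Klrb1b stood at 8.86, 8.95 and 8.72, within 0.18 log2 of the CD69-activated mean and 2.08 above the CD69-/- mean. Farther out on that side, genes for activating and inhibitory receptors of natural killer and cytotoxic cells moved both ways. Klrk1, Klra5 and Klrc1 were lower, at -1.14, -0.96 and -0.82, Klri2, Klrc2 and Klra8 were higher, at 0.49, 0.30 and 0.24, and Klre1, Klri1, Klra6 and Klra3 were not called. Among 35 lectin-like receptor genes of the complex, Cd69 included, 10 were higher (28.6%, against 21.6% of all genes) and 9 lower (25.7%, against 21.0%). Their median was 0.07, and centring on medians gave 6 higher and 15 lower.

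Th1 and cytotoxic effector genes were lower in CD69-activated cells as a group. Of 36 measured, 30 fell and none rose (median -0.69, against 0.04 for all genes), 22 of them by at least 1.5-fold. Here and in the other gene and marker lists below with no call by limma in a direction, the miRNA loci apart, the count in that direction at an unadjusted p under 0.05 was also 0. Ifng, the defining Th1 cytokine, had levels of 9.11, 9.10 and 9.10 in CD69-activated cells and 12.07, 12.06 and 12.22 in CD69-/- cells. The groups were far apart, an 8.08-fold difference (log2 -3.01, SE 0.045, adjusted p = 2.78e-11). Xcl1, a chemokine that draws cross-presenting dendritic cells, was 8.93, 9.13 and 9.17 against 12.17, 12.17 and 12.16 (8.53-fold lower). In bulk RNA, fewer cells of a type and less RNA per cell cannot be told apart.

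The granule proteins with which cytotoxic lymphocytes kill their targets fell together. Gzmb, the gene of the caspase-activating protease granzyme B, was 9.33, 9.53 and 9.45 in CD69-activated cells and 11.99, 11.95 and 12.06 in CD69-/- cells. Gzma, for granzyme A, was 8.25, 8.33 and 8.11 against 10.23, 10.05 and 10.04. The CD69-activated means were 5.92-fold lower for Gzmb and 3.67-fold lower for Gzma. Nkg7, which encodes a cytotoxic granule membrane protein, was 3.18-fold lower, and Prf1, for the pore-forming perforin, was 2.51-fold lower. Gzmd fell by 0.20, while Gzme, Gzmf, Gzmg and Gzmk were not called, with differences of 0.02, 0.07, -0.01 and 0.02. Among the regulators, Tbx21 (T-bet, the Th1 master factor) fell by 0.65, Eomes by 0.82 and Runx3 by 0.31. Stat4, the signal transducer of the interleukin-12 receptor, was not called at 0.02, whereas the receptor chain genes Il12rb2 and Il12rb1 fell by 0.99 and 0.76. Markers of natural killer cells moved with this group: 6 of 10 were lower and 2 higher, at list means of 7.07 to 7.13 on the CD69-activated and 7.51 to 7.55 on the CD69-/- arrays. Gzma, Prf1 and Eomes belong to both lists, and Klrb1c, which encodes the marker NK1.1, was not called at 0.07. The CD8 genes were lower too, Cd8a by 1.15 and Cd8b1 by 0.69. The part of these cells in the effector result was not tested.

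Il21 showed the largest fall of any autosomal gene in the contrast. It encodes interleukin-21, the cytokine with which follicular helper cells support B cells, and its levels were 6.74, 7.18 and 7.13 in CD69-activated cells and 10.39, 10.22 and 10.28 in CD69-/- cells. The mean was 9.69-fold lower (log2 -3.28, SE 0.096, adjusted p = 4.12e-09), and untreated wild-type cells lay between the groups at 8.48, 8.50 and 8.48. Of 18 follicular helper genes, Il21 among them, 8 fell (44.4%, against 21.0% of all genes) and 1 rose (median -0.06), and 13 fell under median centring. Cd200, for a membrane ligand of an inhibitory receptor, fell by 0.61, the costimulatory receptor gene Icos fell by 0.51 and Cxcr5, for the receptor that leads cells to follicles, by 0.24. Bcl6, the defining transcription factor, was 10.56, 10.60 and 10.66 against 10.66, 10.66 and 10.67. Its difference of -0.06 was not called (adjusted p = 0.286) and turned to 0.0043 after cyclic loess.

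The other helper lineages were split. Of 20 Th2 and Th9 genes 9 fell and 2 rose (median -0.13). Penk, which encodes the opioid precursor proenkephalin and also stands in the regulatory T cell list, was 8.30, 8.46 and 8.68 in CD69-activated and 10.88, 10.98 and 10.98 in CD69-/- cells, a 5.52-fold difference. The Th2 chemokine receptor genes Ccr8 and Ccr4 fell by 1.49 and 1.07, and Gata3, the Th2 master factor, by 0.74. The cytokine genes Il5, Il9 and Il13 were not called, at -0.08, -0.11 and -0.15, and Il4 fell by 0.23 with overlapping groups. Of 17 Th17 and IL-22 genes 5 rose and 5 fell, 29.4% each, against 21.6% and 21.0% of all genes. The median was 0.03, and under median centring 4 rose and 8 fell. Ccr6, which marks Th17 cells and is also a receptor of B cells, rose by 0.91, Iltifb by 0.59 and Il17f by 0.46; Batf fell by 0.63 and Il17a was not called at 0.05. Under median centring 8 of the Th17 genes were lower.

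Regulatory T cell genes and inhibitory receptors were mostly lower. Of 25 regulatory T cell genes 20 fell and 3 rose (median -0.53). Foxp3, the lineage's defining factor, was 9.58, 9.66 and 9.71 in CD69-activated and 10.12, 10.09 and 10.07 in CD69-/- cells (1.36-fold lower). Il10, which encodes an anti-inflammatory cytokine, stood at 7.20, 7.18 and 7.05 against 8.69, 8.45 and 8.74 (2.80-fold lower). Among 21 inhibitory receptor and ligand genes 18 fell and 2 rose (median -0.38). Havcr2, which encodes TIM-3, was 6.97, 6.97 and 6.94 against 8.92, 8.79 and 8.97. Lag3 and Cd160 each fell by 1.40, Pdcd1 (PD-1) by 0.44 and Ctla4 by 0.30. The exceptions were Ceacam1, which rose by 0.72, and Btla, which rose by 0.34 and is carried by B cells as well as T cells.

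Genes of the T cell receptor complex and of the response to its signal were lower in CD69-activated cells. Of 29 receptor and proximal signalling genes 22 fell and 2 rose (median -0.29). Zap70, for the kinase that binds the receptor, fell by 0.68, and Cd3d, Cd3e and Cd3g, for receptor chains, fell by 0.65, 0.50 and 0.45. These 3 chain genes also stand in the CD4 T cell marker list. Untreated wild-type cells had a mean of 10.82 for Cd3d, near the CD69-activated mean of 10.75 (CD69-/- 11.40). For Zap70 they lay between the groups, at 10.41 (CD69-activated 10.19, CD69-/- 10.87). Of 37 immediate early and calcineurin response genes 25 fell and 3 rose (median -0.39). Rgs16, which encodes a brake on G protein signalling, was 8.55, 8.64 and 8.75 against 11.09, 11.06 and 11.10 (5.41-fold lower). Nr4a2, a nuclear receptor gene switched on by receptor signalling, was 8.42, 8.54 and 8.49 against 10.23, 10.19 and 10.19. Its levels in untreated wild-type cells were 10.44, 10.34 and 10.21. Nr4a3 and Nr4a1 fell by 1.36 and 1.01 and Egr2 by 1.28, while Egr3 rose by 0.26 and Fos, Fosb and Dusp2 were not called at -0.12, 0.01 and 0.05.

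Interleukin-2 and its receptor fell with them. Il2, the growth factor of activated T cells, was 7.34, 7.11 and 7.11 in CD69-activated cells and 8.87, 8.69 and 8.91 in CD69-/- cells, which did not overlap (3.11-fold lower, SE of the log2 difference 0.078, adjusted p = 1.28e-07). Its promoter is a textbook target of the calcineurin-dependent factor NFAT, and the 250 bases before its start (RefSeq, GRCm38.p6, chr3:37125955-37126204, minus strand) are shown with the NFAT core GGAAAA, searched on both strands, in capitals.
Il2: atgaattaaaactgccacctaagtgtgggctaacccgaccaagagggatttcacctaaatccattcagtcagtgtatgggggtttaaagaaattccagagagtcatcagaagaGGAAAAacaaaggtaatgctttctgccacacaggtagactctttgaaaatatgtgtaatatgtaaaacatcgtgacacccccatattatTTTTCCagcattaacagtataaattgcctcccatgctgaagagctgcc
The window holds 2 matches to the core; the AP-1 letters TGAGTCA and TGACTCA have none. The core is in 20.43% of all 32851 RefSeq promoters of this length and in 14.71% of the 34 of immediate early and calcineurin response genes, so its presence does not set these genes apart. Of 22 genes of interleukin-2, its receptor and the STAT5 factors downstream, 19 fell and none rose (median -0.70). The receptor chain genes Il2ra and Il2rb fell by 1.07 and 0.96, the STAT5-induced feedback inhibitor genes Cish and Socs2 by 0.98 and 0.93 (0.38 at the dimmer Socs2 probe set), and the transcription factor gene Stat5a by 0.53, while Stat5b was not called at -0.07. Of 24 interleukin and interferon receptor chains 13 fell and 1, Il10ra, rose.

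TNF family genes were mostly lower. Of 29 ligand and receptor genes 24 fell and 2 rose (median -0.47). The receptor genes Tnfrsf8 (CD30) and Tnfrsf4 (OX40) fell by 1.44 and 0.79 and the ligand genes Tnf and Tnfsf14 (LIGHT) by 1.19 and 1.16. The 2 that rose, Tnfrsf13b by 0.48 and Tnfrsf13c by 0.41, encode the B cell receptors TACI and BAFF-R. Of 20 NF-kappaB subunit and feedback genes 12 fell and 2 rose (median -0.14); Nfkb2 fell by 0.58, and Rel rose by 0.26.

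Chemokine genes moved in both directions. Of 25 measured 12 fell and 7 rose (median -0.16). Cxcl10, a ligand of the Th1 receptor CXCR3, was 9.38, 9.41 and 9.52 in CD69-activated cells and 11.25, 11.10 and 11.21 in CD69-/- cells. The second such ligand, Cxcl9, was 9.52, 9.56 and 9.45 against 11.08, 11.05 and 11.08. Cxcl2, a ligand of the neutrophil receptor CXCR2, went the opposite way at 8.95, 9.15 and 8.99 against 6.76, 6.77 and 6.86, a 4.70-fold rise (adjusted p = 9.96e-10). Cxcl3, another CXCR2 ligand, rose by 1.19 and Cxcl1 by 0.19; centring on medians left 4 chemokine genes higher. The plot of values by array shows these genes beside the cytokine and granzyme genes, with untreated wild-type cells for reference.

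**Figure D2:**
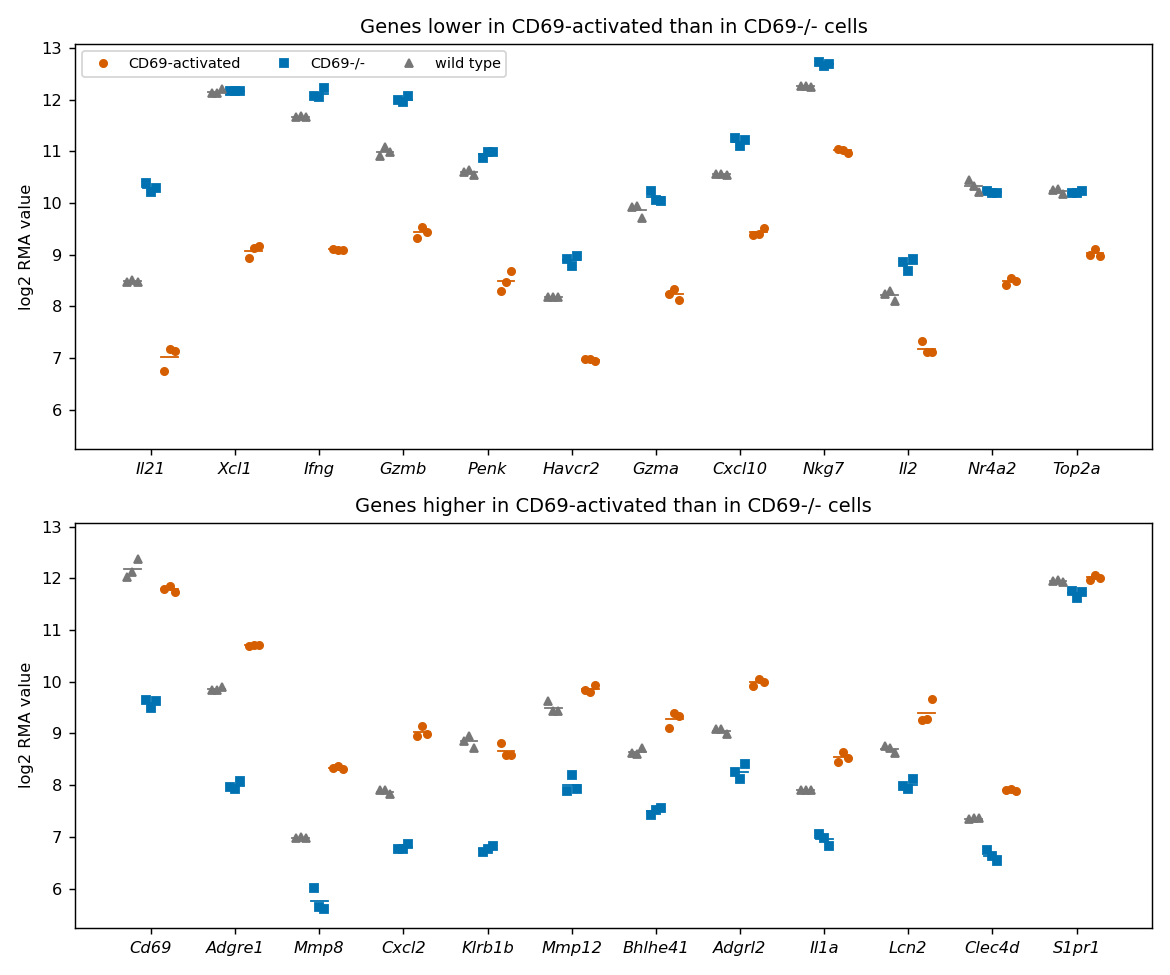
Log2 RMA values of 24 genes on each of 9 arrays (points) with group means (short lines): orange circles are CD69-activated, blue squares CD69-/- and grey triangles untreated wild-type cells. In every gene shown, the 3 CD69-activated values lie on one side of the 3 CD69-/- values, which the naming rule required of most of these genes. Il21 wild-type values near 8.48 lie between the groups, while Xcl1 wild-type values of 12.12, 12.12 and 12.21 lie with CD69-/-.

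Cell cycle genes were lower in CD69-activated cells at both ends of the cycle. Of 48 genes of the G1/S step and DNA replication 42 fell and none rose (median -0.56), and of 65 genes of G2/M and mitosis 61 fell and 2 rose (median -0.64). Top2a, which encodes the topoisomerase that untangles sister chromosomes, was 8.99, 9.10 and 8.98 in CD69-activated cells and 10.19, 10.19 and 10.23 in CD69-/- cells. Kif11, for the motor that separates spindle poles, was 8.47, 8.56 and 8.45 against 9.81, 9.85 and 9.91, and Rrm2, for a subunit of ribonucleotide reductase, was 8.76, 8.55 and 8.67 against 10.07, 10.04 and 10.16. All these values were separated, with falls of 2.26-fold, 2.56-fold and 2.69-fold. Untreated wild-type cells lay with CD69-/- cells, at 10.25, 10.27 and 10.18 for Top2a and 9.77, 9.78 and 9.71 for Kif11. A second, dim probe set of Top2a differed by 0.21 and was not called.

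Genes of G2/M are commonly reached through the CHR element and neighbouring CCAAT boxes, and those of G1/S through E2F sites. The 250 bases before the start of Top2a (RefSeq, GRCm38.p6, chr11:99024190-99024439, minus strand) and Kif11 (chr19:37376132-37376381, plus strand) are shown because these genes fell together. Capitals mark CHR letters (TTTGAA or TTCGAA) and CCAAT, searched on both strands.
Top2a: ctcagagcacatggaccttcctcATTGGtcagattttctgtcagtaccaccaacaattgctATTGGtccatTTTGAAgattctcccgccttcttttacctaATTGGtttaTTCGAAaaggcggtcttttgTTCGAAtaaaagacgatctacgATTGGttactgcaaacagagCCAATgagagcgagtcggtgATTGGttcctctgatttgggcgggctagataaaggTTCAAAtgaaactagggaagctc
Kif11: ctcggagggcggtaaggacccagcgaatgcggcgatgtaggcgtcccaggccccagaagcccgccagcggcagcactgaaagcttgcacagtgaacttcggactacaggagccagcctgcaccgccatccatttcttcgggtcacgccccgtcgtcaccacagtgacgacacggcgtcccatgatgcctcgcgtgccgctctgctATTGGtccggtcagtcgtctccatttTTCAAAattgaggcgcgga
Top2a has 4 CHR and 6 CCAAT matches and Kif11 has 1 of each; no CHR match shares bases with a CCAAT match. Of 56 promoters of the G2/M list 39.29% held a CHR match and 69.64% a CCAAT match, against 17.15% and 33.85% of all promoters. The E2F letters were searched in 3 forms, first TTCCCGC, then with the middle changed to TTGGCGC, and last as TTCGCGC, again on both strands. They were in 45.1% of the 51 promoters of the G1/S list, against 6.69% of all and 14.29% of the G2/M list. A match is a description of letters, not a bound site.

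Within the cycle lists the size of the fall varied. Nusap1 and Ccna2, for a spindle protein and cyclin A2, fell by 1.44 and 1.18. The replication helicase genes Mcm2 to Mcm7 fell by 0.51 to 0.91, and Mki67, whose product Ki-67 marks dividing cells, by 0.77. Among genes not called were Cdk2 at -0.10, Cdt1 at -0.02 and Smc4 at 0.11, and the 2 genes that rose were Cenpa by 0.27 and Cdc25b by 0.16. Upstream of the cycle, the D cyclin genes Ccnd2 and Ccnd3 fell by 0.72 and 0.51 and their partners Cdk6 and Cdk4 by 0.44 and 0.31. The cyclin inhibitor gene Cdkn1b (p27) was not called at 0.06, and the retinoblastoma gene Rb1 rose by 0.34.

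Growth and metabolism genes fell with the cycle, by smaller amounts. Myc, the growth regulator, was 10.83, 10.79 and 10.81 in CD69-activated and 11.85, 11.84 and 11.86 in CD69-/- cells, a 2.06-fold difference with no overlap. Of 46 Myc and ribosome biogenesis genes 42 fell and 1 rose (median -0.44); the riser, Mxd4, encodes a Myc antagonist and differed by 0.31. Of 37 proteasome subunits 36 fell and none rose (median -0.34), and Psmb9, an immunoproteasome subunit, was the exception at -0.04. Of 54 subunits of oxidative phosphorylation 47 fell and none rose (median -0.24). These last 2 groups moved broadly but slightly: 2 proteasome and 4 oxidative phosphorylation genes reached 1.5-fold.

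Nutrient pathways held larger single changes. Of 37 genes of the ATF4 amino acid and unfolded protein responses 25 fell and 1 rose (median -0.22). Asns, for asparagine synthetase, was 9.67, 9.75 and 9.79 against 11.24, 11.18 and 11.25, and Cth, for the cysteine-making enzyme, fell by 1.38. Slc7a11, for the cystine importer, rose instead, at 9.05, 9.16 and 9.07 against 7.81, 8.05 and 8.11. Of 31 sterol and fatty acid synthesis genes 25 fell and 4 rose (median -0.29), led by Idi1 at -0.90, with Scd1 higher by 0.68. Of 36 glycolysis and hypoxia genes 22 fell and 4 rose (median -0.22); Hk2, the inducible hexokinase gene, fell by 0.98 and Pgk1 by 0.71.

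**Figure D3:**
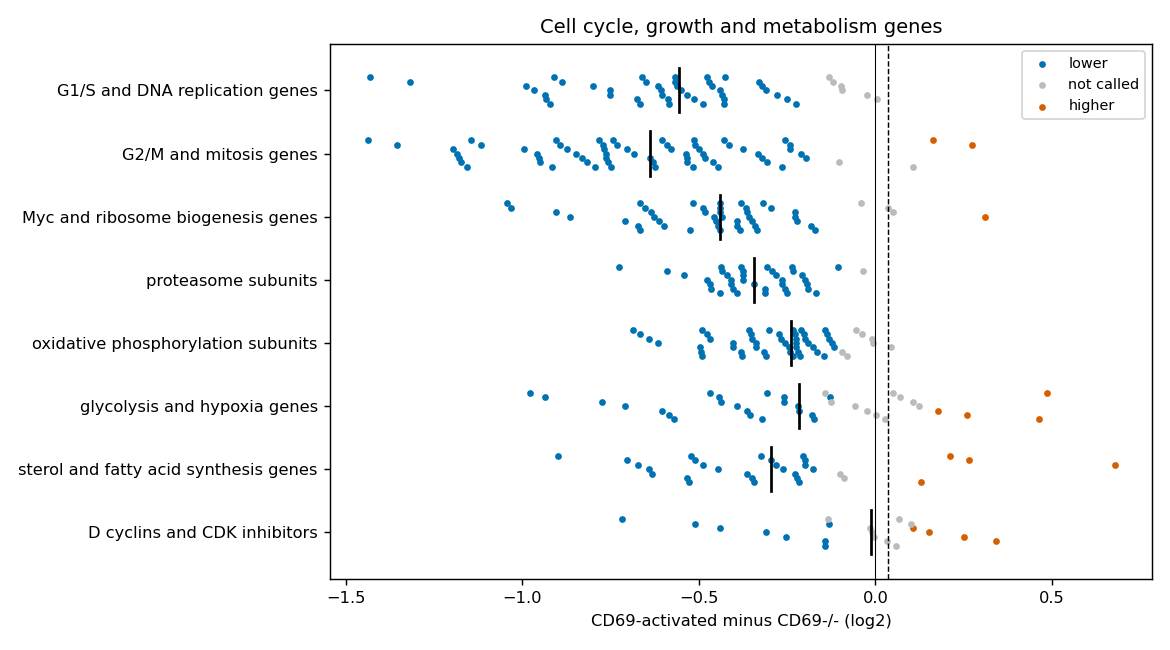
Each point is 1 gene of a list, placed by its CD69-activated minus CD69-/- difference in log2; blue is called lower, orange called higher and grey not called, black bars are list medians and the dashed line is the median of all genes, 0.04. The cycle lists have the lowest medians of the lists plotted, -0.56 and -0.64, and the D cyclin list centres at -0.01.

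The 2 largest autosomal rises, Adgre1 and Mmp8, were in genes of myeloid cells. Adgre1, which encodes the macrophage marker F4/80, was 10.69, 10.70 and 10.71 in CD69-activated cells and 7.96, 7.92 and 8.09 in CD69-/- cells, a 6.54-fold difference (log2 2.71, SE 0.045, adjusted p = 6.37e-11). Mmp8, a collagenase stored in neutrophils, was 8.33, 8.38 and 8.30 against 6.01, 5.65 and 5.60 (5.99-fold higher). Mmp12, the macrophage elastase gene, was 9.84, 9.81 and 9.93 against 7.89, 8.19 and 7.93. These 3 genes were named among rises whose groups do not overlap. In each of them untreated wild-type cells lay between the groups. Their Adgre1 levels were 9.84, 9.83 and 9.89.

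Other markers of monocytes, macrophages and dendritic cells rose by less. Of 31 measured 23 were higher and 3 lower (median 0.30), and centring on medians left 15 higher. The list mean was 7.86 to 7.89 on the CD69-activated and 7.42 to 7.48 on the CD69-/- arrays. Clec4n (dectin-2), Lyz2 (lysozyme) and Itgam (CD11b) rose by 1.13, 1.11 and 0.81, whereas Ccr2, Flt3 and Itgax, genes of monocytes and dendritic cells, fell by 0.69, 0.39 and 0.33. Csf1r, for the receptor of the macrophage growth factor, was near the array medians at 7.40, 7.41 and 7.42 in CD69-activated and 6.86, 6.70 and 6.96 in CD69-/- cells.

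Genes of interleukin-1 and of neutrophil recruitment rose beside them. Of 19 measured 9 rose and 4 fell (median 0.11; with median centring 6 rose, 5 fell and the median was -0.02). Il1a was 8.44, 8.65 and 8.52 in CD69-activated and 7.05, 6.99 and 6.83 in CD69-/- cells, and Il1b was 8.53, 8.70 and 8.51 against 7.45, 7.43 and 7.47. The receptor antagonist gene Il1rn rose by 0.38, and the decoy receptor gene Il1r2 fell by 1.09. Among 23 matrix metalloproteinase and inhibitor genes 10 rose and 3 fell, and under both median centring and cyclic loess 3 rose and 5 fell. The 3 that fell as deposited were the inhibitor genes Timp3, Timp2 and Timp1, at -0.68, -0.58 and -0.29. Neutrophil and mast cell markers were mixed: 10 of 23 rose and 4 fell, and 5 rose and 6 fell under median centring. Lcn2, an iron-scavenging protein of neutrophils and macrophages, rose 2.63-fold, while the neutrophil genes Elane and Mpo were not called at 0.02 and 0.07 and the mast cell gene Cpa3 fell by 1.01.

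Further rises lay outside these groups. Bhlhe41, a repressor of the circadian clock that B-1 cells and macrophages also use, was 9.11, 9.40 and 9.33 against 7.42, 7.52 and 7.56 (3.43-fold higher). Adgrl2, the adhesion receptor gene latrophilin 2, was 9.91, 10.05 and 10.00 against 8.26, 8.12 and 8.41. Gpr52, an orphan receptor gene, was 3.55-fold higher, and Serpinb2, an inhibitor of plasminogen activators, 2.60-fold. Strbp, for an RNA-binding protein, was 2.69-fold higher by its brightest probe set and differed by 0.52 in log2 by another.

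Markers of the lineages in the culture moved with the contrast. B cell markers were higher: 18 of 19 rose and none fell (median 0.52), led by Blk, a Src family kinase of B cells, at 11.63, 11.68 and 11.68 against 10.59, 10.57 and 10.62. The B cell list mean was 11.84 to 11.91 on the CD69-activated arrays, 11.32 to 11.40 on the CD69-/- arrays and 11.87 to 11.92 on the wild-type arrays, all far above the array medians. Cd79a, a defining chain of the B cell receptor, was 13.06, 13.13 and 13.12 in CD69-activated and 12.73, 12.67 and 12.85 in CD69-/- cells. All 13 CD4 T cell markers were lower, at list means of 11.01 to 11.04 against 11.52 to 11.53; Cd4 was 12.09, 12.08 and 12.02 against 12.31, 12.36 and 12.39, and Thy1 fell by 0.98. Cd8a was also well above the array medians, at 10.79, 10.80 and 10.59 against 11.92, 11.82 and 11.88. The cultures labelled CD4 T cells therefore carried RNA of B cell and CD8 genes in both groups. The part of these markers in the other results was not tested.

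**Figure D4:**
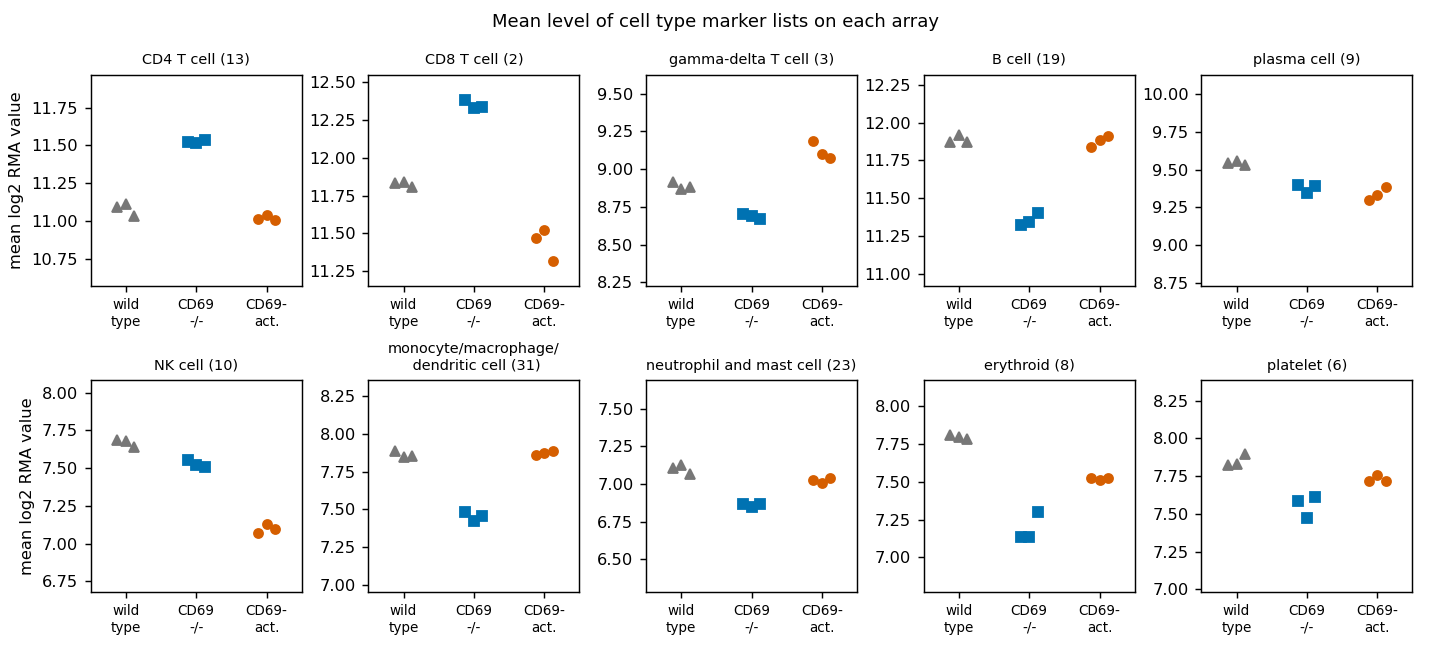
Mean log2 RMA value of each marker list (number of genes in brackets) on each array; every panel spans the same log2 range. B cell and monocyte panels are lower in CD69-/- arrays than in the other 2 groups, CD4 and CD8 panels are higher there, and the NK cell panel is lowest in CD69-activated arrays at 7.07 to 7.13.

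The smaller lineage lists gave mixed counts. Of 8 erythroid markers 4 rose and 1 fell, with Alas2, the haem synthesis enzyme gene, higher by 1.17 and Tfrc, the transferrin receptor gene that dividing T cells also use, lower by 0.94. Of 6 platelet markers 5 rose and 1 fell, none by 1.5-fold; median centring left 2 higher. Of 9 plasma cell markers 3 rose, Mzb1, Sdc1 and Jchain, and 3 fell, Irf4, Prdm1 and Xbp1, which activated T cells share; median centring gave 3 higher and 6 lower.

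Many interferon-induced genes were lower. Of 40 genes of the type I interferon response 27 fell and 2 rose (median -0.23). Oas3, for a sensor of double-stranded RNA, fell by 0.97 and Ifit1 by 0.86, while the factors Stat2 and Irf9 were not called, each at 0.02. Of 22 genes induced by interferon gamma 10 fell and 2 rose (median -0.09; 16 fell under median centring), and outside the chemokine genes Cxcl10 and Cxcl9 no fall exceeded 0.38, that of Socs1. Irf1 and Nlrc5 were not called, each at 0.04, and Ciita, the MHC class II regulator of B cells and other antigen-presenting cells, rose by 0.65.

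Egress and homing genes moved both ways, with more falls than rises. Over the list 7 of 28 rose and 11 fell (median -0.02), the falls being 39.3% against 21.0% of all genes, and 16 fell under median centring. The largest change was that of Rgs1, which encodes a brake on chemokine receptor signalling and fell by 0.84. S1pr1, for the S1P1 receptor that CD69 binds, was 11.97, 12.07 and 12.01 in CD69-activated and 11.76, 11.62 and 11.74 in CD69-/- cells, which did not overlap (1.24-fold higher, adjusted p = 0.000248). Klf2, the factor that drives S1pr1, was 10.48, 10.60 and 10.59 against 10.16, 10.22 and 10.26 (1.27-fold higher). Spns2, the sphingosine 1-phosphate exporter gene, rose by 0.57 and the integrin gene Itga4 by 0.68, while Itgae, which keeps T cells in epithelium, and Itgal fell by 0.50 and 0.40. Ccr7, the lymph node homing receptor gene, fell by 0.14.

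The TGF-beta and BMP pathway had few large changes. Of 32 genes 6 rose (18.8%, against 21.6% of all genes) and 11 fell (34.4%, against 21.0%), with a median of -0.03. Under median centring 1 rose and 20 fell. Bmpr1a, a BMP receptor gene, was 6.31, 6.71 and 6.59 against 7.75, 7.77 and 7.76, and Tgfb3, a ligand gene, was 10.36, 10.45 and 10.50 against 9.50, 9.72 and 9.77. Tgfb1 was not called at -0.03.

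**Figure D5:**
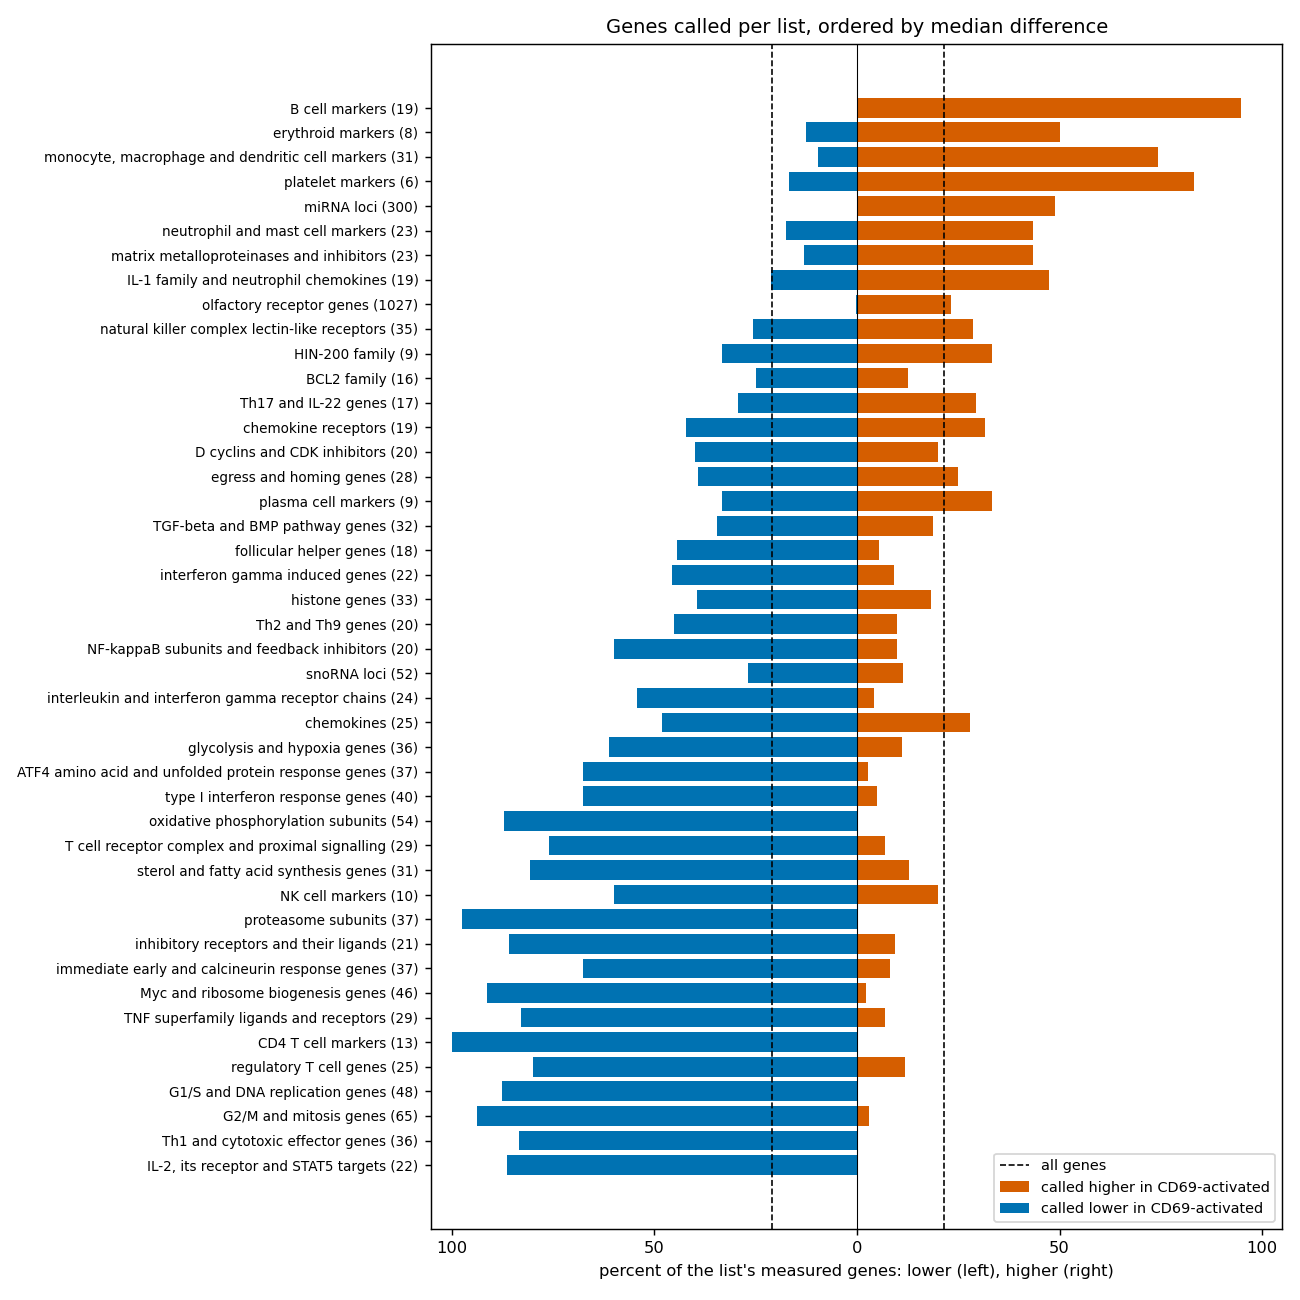
Bars give the percentage of each list called lower (blue, left) and called higher (orange, right) in CD69-activated cells. Lists with 5 or more measured genes (number in brackets) are drawn, except the list of Y-linked and X-inactivation escape genes. Dashed lines mark 21.0% and 21.6%, the shares of all genes, and lists are ordered by median difference. B cell markers stand at one end and the IL-2 and Th1 lists at the other.

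Loci of small RNAs are measured on this array through probes to their hairpins or host transcripts, so a value is not a level of the mature miRNA. Of 300 miRNA loci 147 (49.0%) were called higher and none lower by limma (median 0.14), 2 being lower at an unadjusted p under 0.05. Of all genes 21.6% were called higher and 21.0% lower. The loci were dim, with a median level of 5.90. Among the 4985 dimmest genes, at levels of 3.62 to 6.29, 17.15% were called higher and only 1.16% lower. Few falls were thus called at that level in genes of any kind. With median centring 77 loci were higher and 42 lower, and with cyclic loess 99 higher and 5 lower. The absence of falls therefore rests on the scaling. The 5 largest rises are shown by the mature sequences of their loci (RefSeq, GRCm38.p6), with the seed, bases 2 to 8 that pair with targets, in capitals. They lie on chromosome X for Mir505 (miR-505-3p at chrX:60394416-60394437, minus strand), 14 for Mir687 and Mir15a, 12 for Mir342 and 2 for Mir103-2.
miR-505-3p: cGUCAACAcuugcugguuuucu
miR-687: cUAUCCUGgaaugcagcaauga
miR-342-3p: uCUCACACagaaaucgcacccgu
miR-103-3p: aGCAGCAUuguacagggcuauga
miR-15a-5p: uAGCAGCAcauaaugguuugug
Of the 300 loci 270 had a mature sequence in the table.

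Mir505 was 11.26, 11.53 and 11.36 in CD69-activated and 9.17, 9.27 and 9.41 in CD69-/- cells (4.29-fold higher). Mir342 was 10.80, 10.91 and 10.64 against 9.44, 9.58 and 9.65, while its host gene Evl was not called at 0.03. Mir15a was 9.18, 9.34 and 9.31 against 8.04, 7.99 and 8.21. These 3 loci did not overlap between groups. The seed AGCAGCA is shared by 6 measured loci, whose miRNAs are known to act on cell cycle transcripts: Mir15a, Mir16-2, Mir16-1, Mir15b and Mir195a rose by 1.19, 1.03, 0.78, 0.67 and 0.46, and Mir497 was not called at 0.18. The seed GCAGCAU is shared by Mir103-2, Mir107 and Mir103-1, which rose by 1.21, 0.67 and 0.24. For both seeds the share to set beside these rises is the 49.0% of all 300 miRNA loci called higher. A link between these loci and the cell cycle genes was not tested.

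Small nucleolar RNA loci, which guide chemical marks on ribosomal RNA, had more falls than rises. Of 52 loci 14 fell (26.9%, near the 21.0% of all genes) and 6 rose (11.5%, against 21.6%), with a median of -0.14. Snord118, the U8 RNA of ribosome assembly, was 5.87, 5.34 and 5.36 in CD69-activated and 6.56, 6.39 and 6.19 in CD69-/- cells, and Snord33 was 8.75, 8.25 and 7.99 against 9.15, 9.16 and 9.07. CD69-activated replicate 1 sat nearest to the CD69-/- values in both, and without it 27 loci fell and 5 rose. Under median centring 27 loci fell and 3 rose. Of 33 histone genes 13 fell and 6 rose (median -0.12), and under median centring 21 fell and 2 rose.

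Olfactory receptor genes, which these cells are not known to use, show how dim probe sets behaved. Of 1027 such genes 238 (23.2%) were called higher and 1 lower, with a median of 0.08 and a median level of 5.05. The share higher was near the 21.6% of all genes, and it was 17.15% among the 4985 dimmest genes. The share lower, 0.0974%, was far below the 21.0% of all genes and also below the 1.16% of those dimmest genes. With median centring 34 olfactory receptor genes were higher and 130 lower. Called differences near 0.1 in dim genes are therefore within what the scaling moves.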

How the data were processed

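Per the submitters' processing notes, the authors computed the deposited log2 values with RMA (oligo, R 2.12.1); no settings are stated. The array has 1 colour, and no detection calls were used. Gene symbols came from the platform annotation (1621 probe sets had several symbols and 12146 none), and 21698 of 21789 matched the RefSeq table. The build of the files is not named, so coordinates are those of the GRCm38.p6 sequences.

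A linear model of 3 group means was fitted to all 9 arrays with limma 3.58.1 (R 4.3.3; lmFit, then eBayes with no trend; residual df 6, prior df 4.46). Tests were two-sided, with Benjamini-Hochberg adjustment over 21789 probe sets and a threshold of 0.05. Replicate numbers did not pair the samples. On simulated data for this comparison (21789 probe sets) the fit recovered 60% of probe sets at a 1.2-fold change, 98% at 1.5-fold and 100% at 2-fold. It called 9 of 21589 unchanged ones. Only 50 probe sets were changed at each fold, with independent noise and no shift between arrays. In the data 42.6% of probe sets were called and the scaling moved the counts, so these rates need not hold there.

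Members and lists (33 gene lists and 10 marker lists) were chosen with earlier results of these data known. Named were Cd69, sex-linked genes, the 15 largest called rises and falls with separated groups (without X and Y genes, predicted genes, receptor segments, olfactory genes and small RNAs), up to 6 called members of each list, the 5 largest small RNA changes, and defining lineage genes. List members outside this rule, with neighbours of Cd69 and Evl, were named after their values were seen. Figures were drawn with matplotlib 3.10.9.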

Additional observations from a re-analysis of the deposited data

How the results depend on the processing

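Called probe sets numbered 4692 higher and 4581 lower. Centring arrays on their medians gave 1523 and 8846, which moves the share of calls that are higher from 50.6% to 14.69%, and a 1.5-fold minimum gave 304 and 583. Leaving out 1 array at a time gave 3549 to 4445 higher and 4018 to 4501 lower. The other alternatives (cyclic loess, no dimmest 25%, 1 probe set a gene, means of probe sets, adjustment over the whole table, the 6 arrays alone, trend with robust prior, array weights, replicate block, no X and Y genes) stayed within 1.5 times. The replicate block gave 4375 and 4373. Deviations from the group means were correlated between same-numbered CD69-activated and CD69-/- arrays at -0.000919, 0.00625 and -0.0623. Of 253 named genes 240 kept their call under every alternative that tested them, the 1.5-fold minimum apart; 232 were tested without X and Y genes and 249 without the dimmest 25%. Eif2s3x turned to -0.02 (-0.0153, adjusted p = 0.79) with median centring and Bcl6 to 0.0043 (adjusted p = 0.935) with cyclic loess; neither was called there.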

Other observations

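The HIN-200 genes, which encode interferon-inducible sensors of DNA and lie side by side on chromosome 1, moved in both directions. Of 9 measured 3 rose and 3 fell (33.3% each, against 21.6% and 21.0% of all genes). Ifi208 was 9.81, 10.07 and 9.73 in CD69-activated and 8.72, 8.71 and 8.78 in CD69-/- cells, while Ifi205 was 7.51, 7.57 and 7.74 against 8.91, 8.90 and 9.17. Members of this family are near-identical in places, so probes may be shared between them. Of 16 BCL2 family genes 4 fell, among them Bcl2 and Bak1 by 0.44 each, and 2 rose, Bmf by 0.49 and Hrk by 0.28; 8 fell under median centring.

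Some deposited values were equal between arrays of a group. To 4 decimals, at least 2 of 3 values were equal for 12.6% of 19938 genes in CD69-/-, 8.99% in CD69-activated and 19.5% in wild-type arrays. Fitted on the 6 compared arrays alone, 3942 probe sets were higher and 4286 lower.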
